A study of Mus musculus with 6 samples.

Results

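Transcripts of 7 vascular genes were followed in the soleus of mice without tenascin-C: Cdh5 and Pecam1, which encode adhesion proteins of the junctions between endothelial cells, the receptor gene Tek, and 4 genes of secreted angiogenic factors, Angpt1, Ang, Pgf and Pdgfa. They were chosen by the gene symbol that the platform annotation gives to a probe, and each had 1 probe. The 7 are among 203 genes named on an array of 223 probes. Soleus muscles of Tenascin-C deficient 129/SV mice had been reloaded for 1 day, that is, had borne weight again after a period of unloading. The labels give 1 group of 6 biological replicates with 1 array each, numbered here from 1 to 6 in record order, and all carry the same null genotype. No untreated, unloaded or wild-type muscle was analysed here, so no value can be set against a control, and what reloading or the genotype did to these genes was not measured. Total RNA came from sections of the whole muscle belly and not from sorted vessels.

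Capillaries run along every fibre of the soleus, a slow postural muscle. Their endothelial cells are held together by VE-cadherin, the product of Cdh5, which links neighbouring cells at adherens junctions, and by PECAM-1, which lies at the same borders and also occurs on platelets and leukocytes. Tek encodes TIE2, a receptor tyrosine kinase of endothelium. Its ligand angiopoietin-1, from Angpt1, is made by perivascular and other supporting cells and keeps vessels quiescent, while angiopoietin-2, from Angpt2, is made by endothelial cells and can act against it. Placental growth factor, from Pgf, binds the VEGF receptor FLT1. PDGF-A, from Pdgfa, acts on PDGF receptor alpha of mesenchymal cells. Angiogenin, from Ang, is a secreted ribonuclease that stimulates vessel growth and is not a ligand of TIE2.

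The data show a split among these genes. Cdh5, Pecam1 and Ang reached 2 times the lowest intensity of the array on some arrays, Cdh5 and Pecam1 on arrays 5 and 6 and Ang on arrays 3, 5 and 6. Tek, Angpt1, Pgf and Pdgfa stayed under 2 times the lowest on all 6 arrays. Of all 221 probes that share the authors' scaling, 53.8% reached 2 times the lowest on at least 1 of the 6 arrays, and 3 of the 7 vascular genes did. That share of the members is near the share of all probes, so the count itself does not set the members apart.

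For the secreted factor that reached 2 times the lowest, for the receptor, and for the factor closest to the lowest, the 250 bases before the annotated start are shown, so that the regulatory sequence stands beside the values. They come from RefSeq on build GRCm38.p6, where 4 of the 7 genes matched by symbol: Tek, Ang, Pgf and Pdgfa, not Cdh5, Pecam1 and Angpt1. Capitals mark GGAA or its reverse complement TTCC, the core letters bound by ETS factors, a family that governs many endothelial genes. The window of Ang lies on the plus strand at chr14:51090827-51091076, that of Tek on the plus strand at chr4:94739039-94739288, and that of Pgf, at the more upstream of its annotated starts, on the minus strand at chr12:85177314-85177563.
Ang: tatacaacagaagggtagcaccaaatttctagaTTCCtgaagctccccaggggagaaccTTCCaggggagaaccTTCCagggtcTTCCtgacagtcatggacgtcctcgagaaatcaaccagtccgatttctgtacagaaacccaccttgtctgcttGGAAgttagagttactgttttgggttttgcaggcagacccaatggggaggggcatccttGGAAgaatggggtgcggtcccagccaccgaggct
Tek: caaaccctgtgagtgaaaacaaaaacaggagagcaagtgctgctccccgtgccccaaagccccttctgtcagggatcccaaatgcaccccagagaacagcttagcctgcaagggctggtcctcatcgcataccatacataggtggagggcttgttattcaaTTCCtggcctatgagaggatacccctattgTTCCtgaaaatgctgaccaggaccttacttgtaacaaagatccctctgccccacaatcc
Pgf: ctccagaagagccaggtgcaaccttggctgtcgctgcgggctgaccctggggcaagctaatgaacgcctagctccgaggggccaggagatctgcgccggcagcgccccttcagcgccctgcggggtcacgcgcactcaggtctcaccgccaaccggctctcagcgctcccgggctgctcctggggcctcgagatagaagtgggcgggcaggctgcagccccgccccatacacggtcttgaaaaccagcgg
The Ang window holds 6 matches and the Tek window 2, against a median of 3 over 32851 windows of this length, and the Pgf window holds 0. Both windows annotated for Pdgfa, not printed here, hold 4 matches each, above that median, though Pdgfa stayed under 2 times the lowest. Of the 4 genes with a window, Ang alone reached 2 times the lowest and had the most matches. With 1 such gene, and no windows for Cdh5 and Pecam1, no relation of matches to intensity can be read. At least 1 match occurs in 93.4% of all such windows. TATAAA, searched on both strands, was in none of the 3 windows and is in 12.4% of all windows. These letter matches are a description of the sequence and were not related to the intensities by any test.

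Signals were read as intensities relative to the summed signal of the other probes of the array, on a linear scale with 4 decimals. The lowest intensity of an array, taken over 221 probes, ran from 0.0006 on array 6 to 0.003 on arrays 1 and 2. Each value was divided by it to give a multiple of the lowest, which still contains background and so does not compare the abundance of different transcripts. Probes 1M (unnamed) and 1O (ribosomal RNA) were left out, as their summed intensity was 41.3 on array 1 and 40.5 on array 2 but 0.876 to 3.21 elsewhere. The share of probes at 2 times the lowest or more was 8.6% and 9.05% on arrays 1 and 2 and 16.7%, 29%, 34.8% and 47.1% on arrays 3 to 6. The fibre genes Myh7 (slow myosin heavy chain), Mb (myoglobin) and Des (desmin), read as a check of the tissue, lay at 18.3 to 106 times the lowest on arrays 3 to 6 and at 1.77 to 2.67 times on arrays 1 and 2.

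The junction genes shared their high arrays. The Cdh5 probe gave intensities of 0.0036, 0.0035, 0.0026, 0.0014, 0.0045 and 0.0032 on arrays 1 to 6, that is 1.20, 1.17, 1.44, 1.56, 3.75 and 5.33 times the lowest. Arrays 5 and 6 were highest in these multiples, while in intensity array 6 lay below arrays 1 and 2, whose lowest value was 5 times as high. The Pecam1 probe gave intensities of 0.0036, 0.0044, 0.0027, 0.0017, 0.0055 and 0.0026, or 1.20, 1.47, 1.5, 1.89, 4.58 and 4.33 times the lowest. Again arrays 5 and 6 were the high arrays in multiples, while in intensity array 6 lay below arrays 1 to 3. Over the 6 arrays the log2 multiple was 1.00 ± 0.93 for Cdh5 and 1.1 ± 0.84 for Pecam1 (SD, n = 6). Both genes reached 2 times the lowest on array 5 and on array 6, as did 32.6% of all probes. They did so on none of arrays 1 to 4, and 9.05% of all probes shared this whole pattern. For Pecam1 on array 4, rounding allows a multiple from 1.74 to 2.06, so 2 times lies within its range there. Their place among the probes of an array also differed: Cdh5 stood at percentiles 83.3 and 83.7 on arrays 5 and 6 and at 36.2 to 68.8 on the others. Pecam1 stood at percentiles 87.3 and 81.7 on arrays 5 and 6, but was nearly as high on array 2, at 80.3. In bulk muscle, fewer endothelial cells and less of a transcript per cell cannot be told apart.

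**Figure D1:**
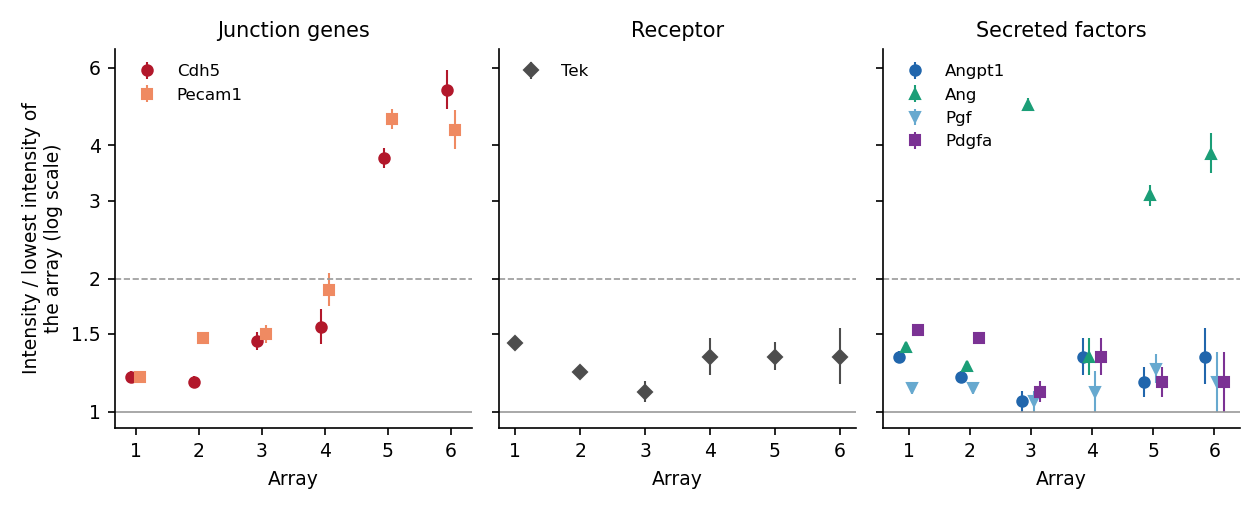
Intensity of each gene as a multiple of the lowest intensity of the array (log scale) on arrays 1 to 6, in panels for the junction genes, the receptor and the secreted factors. Points are single arrays, vertical lines show what rounding to 4 decimals allows, the dashed line marks 2 times the lowest. Cdh5 and Pecam1 lie above it on arrays 5 and 6 and Ang on arrays 3, 5 and 6, while the other 4 genes lie between 1.06 and 1.53 times.

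How far the junction genes differed between arrays depended on the scale. Relative to the median of all probes, the difference changed with quantile normalization and cyclic loess only. Between arrays 5 and 6 and arrays 1 and 2, the mean log2 intensity as deposited differed by 0.10 for Cdh5 and by −0.07 for Pecam1, when the median of all 221 probes differed by −1.40. As multiples of the lowest the same differences were 1.92 and 1.75, against a median of 0.42. After centring on the median of the array they were 1.41 and 1.24 (all probes −0.09), after quantile normalization 0.97 and 0.63 (0.04), and after cyclic loess 0.73 and 0.33 (0.03). Intensities as deposited, multiples and median-centred values differ by a constant per array. The distance of a gene from the median of all probes is therefore the same on these scales by construction. Both genes lay above that median on each scale, less far after quantile normalization and least far after cyclic loess. Ang did not: its differences were −0.45 as deposited, 1.37 in multiples, 0.86 after median-centring and 0.41 after quantile normalization, but −0.21 after cyclic loess, where it lay below the median of all probes. Arrays 3 and 4 do not have the bright 1M and 1O spots of arrays 1 and 2. Arrays 5 and 6 differed from arrays 3 and 4 by 0.99 for Cdh5 and 0.82 for Pecam1 in deposited log2 intensity (all probes −0.38). Both genes thus again lay above the median of all probes. For Ang this difference was −0.16 as deposited, above that median. It was −0.39 after quantile normalization (all probes −0.04) and −0.33 after cyclic loess (all probes −0.03), below the median. These sets of arrays were formed after the values were seen, so no test was run between them.

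Tek, the receptor, stayed near the lowest intensity. Its intensities were 0.0043, 0.0037, 0.002, 0.0012, 0.0016 and 0.0008 on arrays 1 to 6, or 1.43, 1.23, 1.11, 1.33, 1.33 and 1.33 times the lowest. No array stood out in these multiples, and arrays 4, 5 and 6 were equal. The log2 multiple was 0.37 ± 0.13 (SD, n = 6). On array 6 the probe lay 2 steps of the last decimal above the lowest, and rounding alone allows a multiple from 1.15 to 1.55 there. Among all probes Tek stood at percentiles 74.9 and 55.0 on arrays 1 and 2, where most probes lay close to the lowest, and at 21.7 to 36.7 on arrays 3 to 6. An absence of the transcript was not shown. Kdr and Flt1, VEGF receptors of endothelium, lay at 1.28 to 2.0 and 1.28 to 1.83 times the lowest, and Nos3, the endothelial nitric oxide synthase, at 1.08 to 1.63 times. Of the 6 endothelial marker genes on the array, out of 10 listed, Cdh5 and Pecam1 were thus the ones above 2 times the lowest on both array 5 and array 6.

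Among the secreted factors Ang differed from the other 3. Its intensities were 0.0042, 0.0038, 0.0089, 0.0012, 0.0037 and 0.0023 on arrays 1 to 6, or 1.40, 1.27, 4.94, 1.33, 3.08 and 3.83 times the lowest. Arrays 3, 5 and 6 were high and arrays 1, 2 and 4 low, with no value between 1.40 and 3.08. Ang thus shared arrays 5 and 6 with the junction genes and was also high on array 3, where Cdh5 and Pecam1 gave 1.44 and 1.5 times. On that array 16.7% of all probes reached 2 times the lowest, and Ang was the member that did. The log2 multiple of Ang was 1.19 ± 0.87 (SD, n = 6). Mouse angiogenin has close relatives in the genome, and the sources used here do not say whether the probe tells them apart. Ang2, the relative with a probe of its own and named here after its values were seen, gave 1.5, 1.30, 1.33, 1.33, 2.0 and 3.0 times the lowest. It was low on array 3, where Ang was highest.

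Angpt1, the TIE2 ligand, gave intensities of 0.004, 0.0036, 0.0019, 0.0012, 0.0014 and 0.0008, or 1.33, 1.20, 1.06, 1.33, 1.17 and 1.33 times the lowest. Its log2 multiple was 0.30 ± 0.14 (SD, n = 6), and no array stood out. Pgf gave intensities of 0.0034, 0.0034, 0.0019, 0.001, 0.0015 and 0.0007, or 1.13, 1.13, 1.06, 1.11, 1.25 and 1.17 times the lowest, with a log2 multiple of 0.19 ± 0.08 (SD, n = 6). This was the lowest mean of the 7, and on arrays 3, 4 and 6 the probe lay 1 step of the last decimal above the lowest of the array, where rounding allows a multiple of 1. Pdgfa gave intensities of 0.0046, 0.0044, 0.002, 0.0012, 0.0014 and 0.0007, or 1.53, 1.47, 1.11, 1.33, 1.17 and 1.17 times the lowest. In contrast to the junction genes, Pdgfa was highest on arrays 1 and 2, and its log2 multiple was 0.36 ± 0.19 (SD, n = 6). The spots around Pdgfa, as far as the layout is known, averaged nearly the same multiples on arrays 1 and 2, as given below. For Tek, Angpt1, Pgf and Pdgfa together, all 16 values on arrays 3 to 6 lay within 4 steps of the last decimal of the lowest. On arrays 1 and 2 the steps were finer and the genes could be ordered: rounding allowed 1.49 to 1.58 for Pdgfa, 1.39 to 1.47 for Tek and 1.1 to 1.17 for Pgf on array 1, although such an order between probes is no order of transcripts. The means of the spots around these genes had the same order on array 1, as given below.

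**Figure D2:**
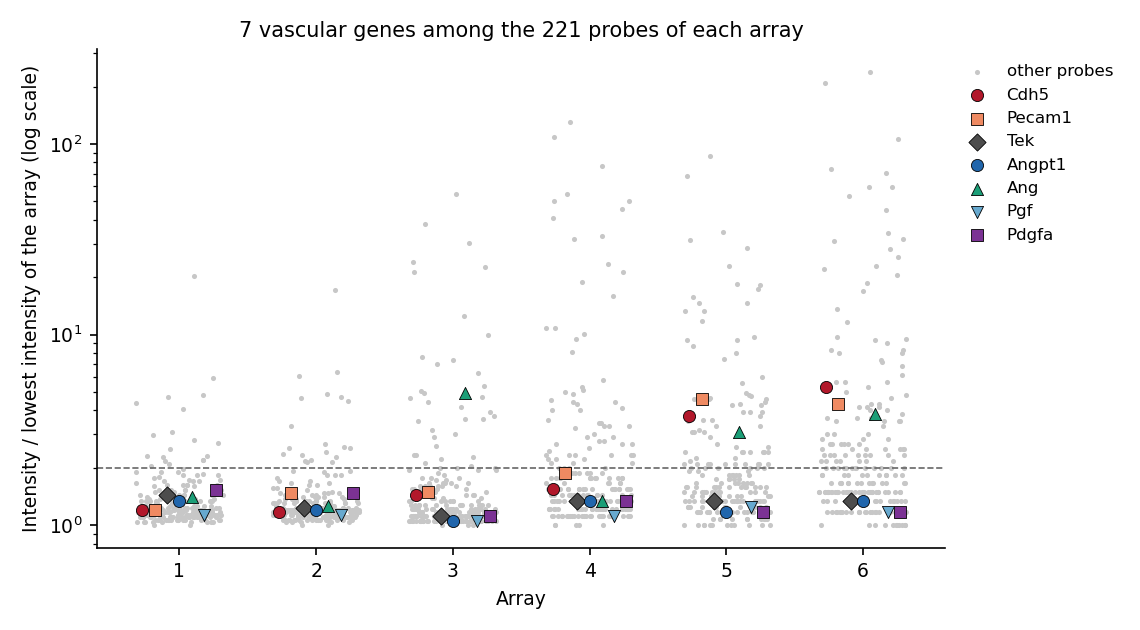
Intensity over the lowest intensity of the array (log scale) for 221 probes on each of arrays 1 to 6, with grey points for other probes and coloured symbols for the 7 genes. The dashed line marks 2 times the lowest, which 8.6% of probes reached on array 1 and 47.1% on array 6, and on arrays 5 and 6 Cdh5, Pecam1 and Ang lie above it and the other 4 genes below.

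Junction genes, receptor and secreted factors were then compared as mean log2 multiples per array. Cdh5 and Pecam1 together gave 0.26, 0.39, 0.56, 0.78, 2.05 and 2.27 on arrays 1 to 6. The 4 secreted factors gave 0.42, 0.33, 0.65, 0.35, 0.60 and 0.70, and Tek gave 0.52, 0.30, 0.15, 0.42, 0.42 and 0.42. In these multiples the junction mean thus ranged over the arrays more than the other 2. The mean of the factors joins Ang with 3 genes that stayed near the lowest. Ang alone ranged about as widely as the junction genes, with an SD of the log2 multiple of 0.87 against 0.93 for Cdh5 and 0.84 for Pecam1. The difference of junction genes from secreted factors was −0.16, 0.05, −0.10, 0.43, 1.45 and 1.57, so that it was near 0 on arrays 1 to 3 and largest on arrays 5 and 6. Its mean was 0.54 ± 0.78 (SD, n = 6), less than its spread between arrays. Without Ang among the factors the difference was −0.14, 0.06, 0.46, 0.45, 1.80 and 1.98. From Tek the junction genes differed by −0.26, 0.08, 0.41, 0.36, 1.64 and 1.85 on the log2 scale, with a mean of 0.68 ± 0.86 (SD, n = 6). Background common to an array cancels in none of these differences, because it makes up a larger part of a weak signal. Since the genes were chosen with values known, no test of the classes was run.

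The change within each probe was also set beside that of all probes. From arrays 1 and 2 to arrays 5 and 6, the log2 multiple differed by 1.92 for Cdh5, 1.75 for Pecam1 and 1.37 for Ang, above 85.5%, 83.7% and 79.2% of the 221 probes. The quartiles of all probes were 0.09 and 1.03. The differences of Tek, Angpt1 and Pgf were 0.00, −0.02 and 0.09, above 21.3%, 19.9% and 25.8% of probes. Pdgfa differed by −0.36, above 5.88% of probes. By this measure, which for Ang changes sign with cyclic loess as given above, Cdh5, Pecam1 and Ang lay above the upper quartile of all probes. Tek, Angpt1 and Pdgfa lay below the lower quartile, and Pgf next to it. The 3 genes that reached 2 times the lowest all did so on arrays 5 and 6, in these same multiples. The order thus largely restates that split and is no separate support for it.

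Profiles over the 6 arrays were compared with every other probe, as the root mean square difference of median-centred log2 intensities after each probe's own mean was removed. For Cdh5 the most similar of 220 other probes was Fst (follistatin, an activin and myostatin binding protein) at 0.16, and the next was Pecam1 at 0.22, against a median of 0.75 over all other probes. For Pecam1 the order was Fst at 0.14, the Igf1 probe 16I (insulin-like growth factor 1) at 0.16, and then Cdh5 at 0.22, against a median of 0.68. Fst gave 3.50 and 4.17 times the lowest on arrays 5 and 6 and at most 1.78 times on the others, the same high arrays as the junction genes. For Tek the most similar probe was Angpt1, at 0.07 against a median of 0.29, followed by the growth factor receptor Fgfr4, also at 0.07. Angpt1 came closest to Fgfr4 at 0.04 and to Itgav, an integrin subunit, at 0.07. Closest to Ang were Cdk4 (a cell cycle kinase) at 0.28 and Itga8 (an integrin subunit) at 0.41, against a median of 0.80. Closest to Pgf were the myogenic factor Myf5 and the protease Adam8, each at 0.04, and closest to Pdgfa were the endothelin genes Edn2 and Edn3, each at 0.05. Probes near the lowest intensity all follow it, so small differences between such profiles, including that of Tek and Angpt1, describe the floor of the arrays as well as the genes.

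Values of neighbouring spots and of other cell types stood beside these patterns. If the number and letter of a probe identifier give its row and column, Cdh5 and Pecam1 lay 14.9 steps apart, and Tek and Angpt1 were adjacent. The 8 neighbours of Cdh5 had mean multiples of 1.23, 1.20, 1.63, 1.54, 2.99 and 3.81 on arrays 1 to 6, with the unnamed probe 10C at 11.8 and 16.8 times on arrays 5 and 6. The 3 neighbours of Pecam1 averaged 4.5 times on array 5 and 10.9 times on array 6, but also 3.37 and 8.93 times on arrays 3 and 4, where Pecam1 was low. The fibre gene Car3 carried these means, at 7.33, 23.3, 9.67 and 28.2 times on arrays 3 to 6, while Gip and Fabp3 lay between 1.11 and 2.83 times there. The 5 neighbours of Ang lay between 1.21 and 1.57 on average on all arrays, also on array 3. On array 1 the neighbours of Pdgfa, Tek and Pgf averaged 1.59, 1.43 and 1.21 times, the same order as the genes themselves. The 8 neighbours of Pdgfa averaged 1.47 times on array 2, as Pdgfa gave there, and 1.75 to 2.74 times on arrays 3 to 6. Pdgfa, Tek and Pgf lay 7.21, 8.49 and 11.4 steps from 1M, which was bright on arrays 1 and 2. The part of spot position in these results was not tested.

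Of the listed markers of other cells, Fabp4, used for adipocytes and also made by capillary endothelium, gave 1.13, 1.07, 2.11, 4.33, 7.42 and 8.33 times the lowest and was highest on the arrays where the junction genes were high. It was the 1 adipocyte marker of 4 with a probe. Pdgfrb, the 1 pericyte marker of 5 with a probe, lay between 1.28 and 2.33 times, and Il1b, the 1 leukocyte marker of 6, between 1.07 and 1.17 times. The 3 fibroblast probes, 1 for Pdgfra and 2 for Fn1, summed to 0.0131 and 0.0125 on arrays 1 and 2 and to between 0.003 and 0.0075 on arrays 3 to 6. The 6 endothelial probes, Cdh5, Pecam1 and Tek among them, summed to 0.0262 and 0.0255 on arrays 1 and 2, to 0.0139 and 0.0086 on arrays 3 and 4 and to 0.0174 and 0.0096 on arrays 5 and 6. In summed intensity both lists were thus highest on arrays 1 and 2, whose lowest intensity was also the highest. The 8 fibre markers summed to 0.0436 and 0.0450 on arrays 1 and 2, to 0.225 and 0.268 on arrays 3 and 4, and to 0.173 and 0.238 on arrays 5 and 6. The fibre signal was thus as high on arrays 3 and 4, where Cdh5 and Pecam1 were low, as on arrays 5 and 6. No marker was listed at 0. The part of cell composition in the results was not tested.

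The wider list of angiogenesis and endothelial genes held 53 genes, of which 34 were on the array, 27 of them beside the 7. Of these 27 probes, 14 reached 2 times the lowest on at least 1 of arrays 3 to 6, where 52% of all probes did, and 0 did on each of these arrays, where 13.6% of all probes did. Their counts per array were 2 and 2 on arrays 1 and 2 and 0, 5, 6 and 9 on arrays 3 to 6. The median over these probes of the median multiple on arrays 3 to 6 was 1.5, as over all probes, and it was 1.33 for the 7 genes. Angpt2, the angiopoietin that endothelial cells release, gave 1.53, 1.40, 1.11, 1.44, 5.58 and 8.0 times the lowest. It was high on the arrays where Cdh5 and Pecam1 were high, while Angpt1 gave 1.17 and 1.33 times there. The probes of Angpt1, Tek and Angpt2 lie in a row in the assumed layout. Vegfd, a lymphatic and vascular growth factor whose spot is next to that of Cdh5, gave 3.17 and 4.17 times on arrays 5 and 6 and between 1.28 and 1.78 times on the others. Vegfb, a VEGF family ligand of FLT1, reached 2 times the lowest on arrays 4, 5 and 6, with 2.89, 2.08 and 3.33 times. Pdgfrb reached it on arrays 1, 2, 4 and 6, and Tgfb1, a multifunctional cytokine, on arrays 4 and 6 with 2.0 and 2.17 times. The receptors of Pgf and Pdgfa, chosen here after their values were seen, were Flt1, given above, and Pdgfra at 1.83, 1.90, 1.33, 2.11, 1.33 and 1.67 times.

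**Figure D3:**
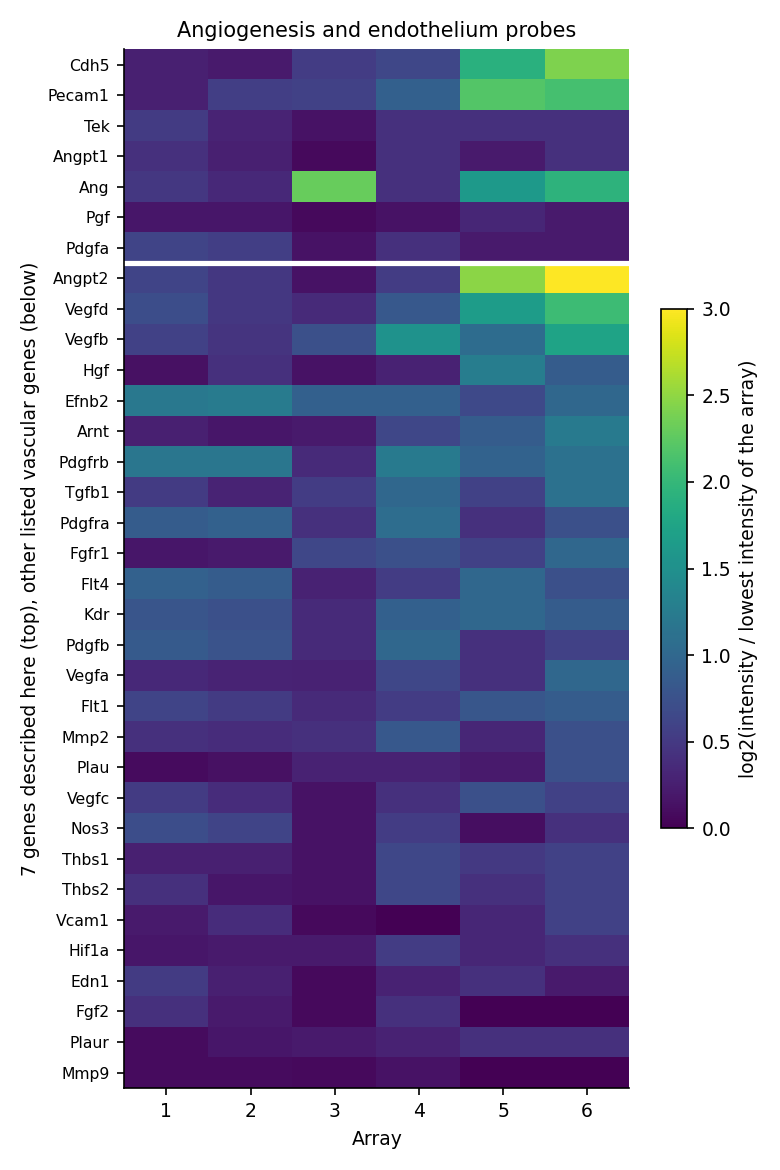
Log2 of the intensity over the lowest intensity of the array for the 34 listed angiogenesis and endothelium probes, with arrays 1 to 6 as columns, the 7 genes above the white line and the other 27 below it in order of their highest multiple. Cdh5, Pecam1, Ang, Angpt2 and Vegfd lie above 3 times the lowest on both array 5 and array 6, and Ang also does on array 3.

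Whether any of the 7 varied more between arrays than probes of like signal was tested with limma's variance test, fitted over the 197 probes above the lowest on all 6 arrays, as all 7 genes were. Over these probes 2.03% were called at an adjusted p under 0.05, and 0 of the 7 genes were, with 1 of them, Ang, at an unadjusted p under 0.05. Ang had an SD of log2 intensity of 0.96 (limma adjusted p = 0.627). Cdh5 and Pecam1 had SDs of 0.59 and 0.61, below those of Tek (0.94), Angpt1 (0.91), Pgf (0.93) and Pdgfa (1.08), all with a limma adjusted p of 0.874. The median SD of the 197 probes was 0.83. In multiples of the lowest these 4 genes had smaller SDs than Cdh5 and Pecam1, and the lowest intensity itself differed 5 times between arrays. After median-centring the SDs were 0.68 for Cdh5, 0.61 for Pecam1, 0.80 for Ang and 0.42 for Pdgfa, and 0.26 to 0.28 for Tek, Angpt1 and Pgf, against a median of 0.29. None of the 7 passed the test on that scale either, with the smallest limma adjusted p at 0.335 for Pdgfa. On arrays 3 to 6 alone Ang passed (SD 1.22, limma adjusted p = 0.0303), where 2% of 200 probes were called, and did not once these arrays were median-centred (SD 0.87, limma adjusted p = 0.828). In limma's test the adjusted p of Ang lay between 0.0303 and 0.940 over 17 settings, and 1 of these calls it.

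**Figure D4:**
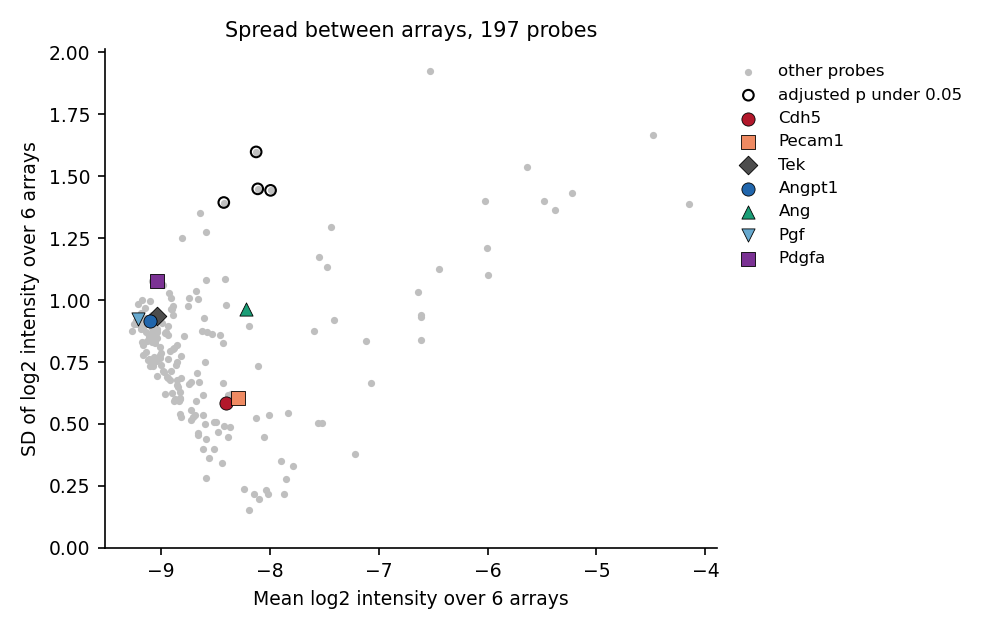
SD against mean of the log2 intensity over 6 arrays for the 197 tested probes, with grey points for other probes, open circles for the 4 probes called by limma's variance test and coloured symbols for the 7 genes. Cdh5 and Pecam1 lie at SDs of 0.59 and 0.61, below the 4 genes near the lowest intensity at 0.91 to 1.08, and none of the 7 is called.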

How the data were processed

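The authors deposited linear intensities, 1 for each of 223 probes on each of 6 arrays. Per the labels' protocols, RNA was reverse transcribed with gene-specific primers and a radioactive nucleotide. Without probes 1M and 1O each array sums to about 1, which was read from the values; image analysis, background treatment and genome build are not given in the sources used here. Symbols came from the platform annotation, and all 7 members matched the RefSeq gene table (GRCm38.p6) by Entrez identifier. The arrays are called biological replicates in the labels, with nothing said of separate animals; p-values measure the spread between these samples. Depth has no meaning for arrays; their number limits the precision.

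Members, lists and tests were chosen with earlier results of these data known. Intensities were divided by the lowest of the array, over 221 probes, with 2 times it as threshold. Variance was tested with limma 3.58.1 in R 4.3.3 (squeezeVar, robust trended prior, upper-tail F test, Benjamini-Hochberg adjustment at 0.05). A check on simulated data drew each value independently, without a shift shared by the probes of an array. It therefore does not cover the differences in lowest intensity between these arrays. Named besides the members were the 2 nearest named profiles of each, the 5 other listed genes that reached 2 times the lowest on the largest number of arrays 3 to 6 (ties by median multiple), and tissue checks. No correlation across arrays was computed, since arrays 1 and 2 stand apart. Alternatives were scaling, filters, prior, reference value, threshold and left-out arrays.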

Additional observations from a re-analysis of the deposited data

How the results depend on the processing

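The count of 3 members at 2 times the lowest on at least 1 array stayed at 3 with the 5th percentile or the median of the 5 lowest probes as reference, at a threshold of 3 times, on arrays 3 to 6 and without each array in turn. It was 4 at 1.5 times, and 1 on arrays 1 to 4 alone, a setting added after the data were seen. The mean log2 multiple turned below 0 with the array median as reference for Tek (−0.11), Angpt1 (−0.18), Pgf (−0.29) and Pdgfa (−0.12), and with the 5th percentile that of Pgf was 0.0828 against 0.19. This follows from the reference, which is higher. The difference of junction genes from secreted factors ran from 0.34 to 0.68, and that from Tek from 0.45 to 0.87, when 1 array was left out. Limma's variance test called 4 probes, 1 after median-centring, after cyclic loess or with a prior that was not robust, 0 after quantile normalization (5 at an unadjusted p under 0.05) and 0 on median-centred arrays 3 to 6 (13 unadjusted). Without 1 array it called 0 to 6, with 0 without array 1, 2 or 6 (10, 11 and 9 unadjusted) and 1 without array 3; the cause was not tested. No paired analysis was possible because the labels give 1 group. Background limits what can be read of Tek, Angpt1, Pgf and Pdgfa.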

Other observations

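The high arrays of Cdh5 and Pecam1 were shared by genes of other kinds. Of 221 probes, 20 (9.05%) reached 2 times the lowest intensity on arrays 5 and 6 and on none of arrays 1 to 4. They are 2 of the 7 members, Cdh5 and Pecam1, 2 other listed angiogenesis genes, Angpt2 and Vegfd, and 16 more. These are Ang2, Ccna1, Cdkn2d, Csf2rb, Fosl2, Fst, Ghr, the Igf1 probe 16I, Lama3, Lama4, Lamb2, Ldhc, Myod1, Pold1, Slc2a2 and Srf. The highest of the 16 was Ccna1, a cyclin, with 6.0 and 8.0 times on arrays 5 and 6. Related genes did not all share the pattern: of the laminin chains, Lama3 gave 4.92 and 2.67 times, while Lama2 gave 1.5 and 1.5 and Lamb3 1.08 and 1.17 times, and the other Igf1 probe, 22H, also passed on array 3 at 2.06 times. No shared function is read from these names. Ang2 is in the set and Ang, with 4.94 times on array 3, is not. The set was formed after the values were seen, arrays 5 and 6 also had the most probes at 2 times the lowest (77 and 104), and no test was run on it.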
